A study of Homo sapiens with 6 samples.

Results

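Glycolysis and the response to low oxygen were examined in SUM-LM1 cells, a lung-metastatic derivative of the human breast cancer line SUM159, through 40 genes that encode glucose transporters, glycolytic enzymes and their regulators, hypoxia-inducible factors (HIF), oxygen sensors and targets of HIF. The genes were chosen by function, as a list of symbols, with earlier results of these data known. Their probe sets were found through the annotation of the array. Of the 40 genes, 37 had a probe set of their own, 89 sets in all, among 19775 named genes on the array. SLC16A1, SLC16A3 and CA9 had no matched set in the annotation used here and were not analysed here. A gene with several sets was read from the set with the highest mean signal over all arrays, and every set was shown for HK2, SLC2A1 and PFKFB2.

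All cells were of the 1 line and were seeded in suspension, in ultra-low attachment plates with HuMEC medium, made for mammary epithelial cells, holding 0.1% BSA. Activin B, a secreted homodimer of inhibin beta B subunits in the TGF-β family, was given at 50 ng/ml for 6 h to 3 cultures, and 3 cultures received vehicle (0.1% BSA in PBS) for the same time. The labels call the 3 cultures of a group biological replicates. Nothing further is said of how they were kept apart, so each p value weighs a difference against the spread of these arrays alone. Activin B was studied as a product of reactive endothelial cells around lung metastases, and the comparison asked how cancer cells change their transcripts when they meet it. Because RNA was taken from whole cultures, a change in RNA per cell cannot be told apart from a change in the mixture of cells. Oxygen, glucose and lactate were not part of these measurements.

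Glycolysis turns glucose into pyruvate in the cytosol. Glucose enters through transporters such as GLUT1, is trapped by hexokinase as glucose-6-phosphate, and passes a control point at phosphofructokinase, which is stimulated by fructose-2,6-bisphosphate made by PFKFB enzymes. Pyruvate then becomes lactate or enters mitochondria, a choice that pyruvate dehydrogenase kinases shift away from oxidation. When oxygen is plentiful, prolyl hydroxylases (EGLN) mark the alpha subunits of HIF for degradation, and when it is scarce, HIF accumulates and raises transcripts for many of these same enzymes, for VEGFA and for mitophagy receptors. Carcinoma lines are known for high glycolytic flux also in oxygen, and HIF alpha protein is controlled mainly after translation, so the HIF1A transcript is a poor measure of HIF activity.

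HIF binds DNA at a short core, ACGTG or GCGTG. The 250 bases before the gene start were taken from RefSeq (GRCh38.p14) for 4 members that the results turn on, with HK2 and SLC2A1 shown because they had the smallest p values of the members, and LDHA and BNIP3 because they hold several cores and their signals stayed near the vehicle level. Sequences run 5′ to 3′ on the strand of the gene, and capitals mark matches to either core on either strand.
HK2 (chr2:74833877-74834126, plus strand): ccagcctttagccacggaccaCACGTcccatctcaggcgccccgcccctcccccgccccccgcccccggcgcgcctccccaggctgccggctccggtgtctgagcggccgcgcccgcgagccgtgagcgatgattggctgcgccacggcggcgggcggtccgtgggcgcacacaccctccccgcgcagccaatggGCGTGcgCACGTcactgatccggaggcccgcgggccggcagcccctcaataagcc
SLC2A1 (chr1:42958869-42959118, minus strand): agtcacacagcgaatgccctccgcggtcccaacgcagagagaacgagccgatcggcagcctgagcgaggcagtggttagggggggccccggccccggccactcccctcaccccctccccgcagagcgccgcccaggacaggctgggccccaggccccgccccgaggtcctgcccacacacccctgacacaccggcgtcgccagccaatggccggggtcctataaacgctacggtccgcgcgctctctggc
LDHA (chr11:18394313-18394562, plus strand): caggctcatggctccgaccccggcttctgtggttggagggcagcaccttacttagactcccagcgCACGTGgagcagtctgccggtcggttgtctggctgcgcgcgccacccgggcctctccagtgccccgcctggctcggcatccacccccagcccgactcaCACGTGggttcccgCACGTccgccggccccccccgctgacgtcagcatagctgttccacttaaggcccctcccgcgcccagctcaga
BNIP3 (chr10:131981924-131982173, minus strand): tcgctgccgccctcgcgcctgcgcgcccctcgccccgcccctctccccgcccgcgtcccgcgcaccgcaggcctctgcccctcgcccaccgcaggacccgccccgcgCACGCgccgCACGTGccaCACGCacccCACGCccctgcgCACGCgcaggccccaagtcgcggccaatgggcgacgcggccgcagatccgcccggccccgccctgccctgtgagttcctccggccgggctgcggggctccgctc

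The HK2 window held 3 matches, beginning 229, 55 and 48 bases before the gene start, and the SLC2A1 window held 0 matches. The LDHA window held 5 and the BNIP3 window 6, counting a palindromic CACGTG, which reads ACGTG on both strands, as 2 overlapping matches. Of the 37 measured genes, 32 had a promoter entry, and 20 of these (62.5%) held at least 1 core, against 43.1% of 27305 promoter windows of the same length. The windows of the members were also richer in G and C, with a median of 69.8% against 58% over all windows. A match is a description of the sequence, and binding was not measured. Sequence outside these windows was not searched, so a window without a match does not show that a gene lacks such cores.

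Among the 37 measured genes, HK2 alone was higher in activin B by its representing probe set at an adjusted p under 0.05 (limma), and none was lower. Over all 19775 genes 0.192% were called, 0.101% higher and 0.091% lower. At an unadjusted p under 0.05, HK2 was higher and SLC2A1 lower, 2 of 37 genes (5.41%), against 5.89% of all genes (3.14% higher, 2.75% lower). The arrays of the groups did not overlap for 4 of the 37, namely HK2 and PKM on the higher side and SLC2A1 and VEGFA on the lower side, which is 10.8% against 10.3% of all genes (5.14% higher, 5.21% lower). Both of these shares lay near the background. The median log2 change of the 37 was 0.01, beside -0.00 over all genes, with 20 members above 0 and 17 below it. In 36 of the 37, the 95% confidence interval of the log2 change lay wholly within 0.5 of 0, as it did for 99.6% of all genes.

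**Figure D1:**
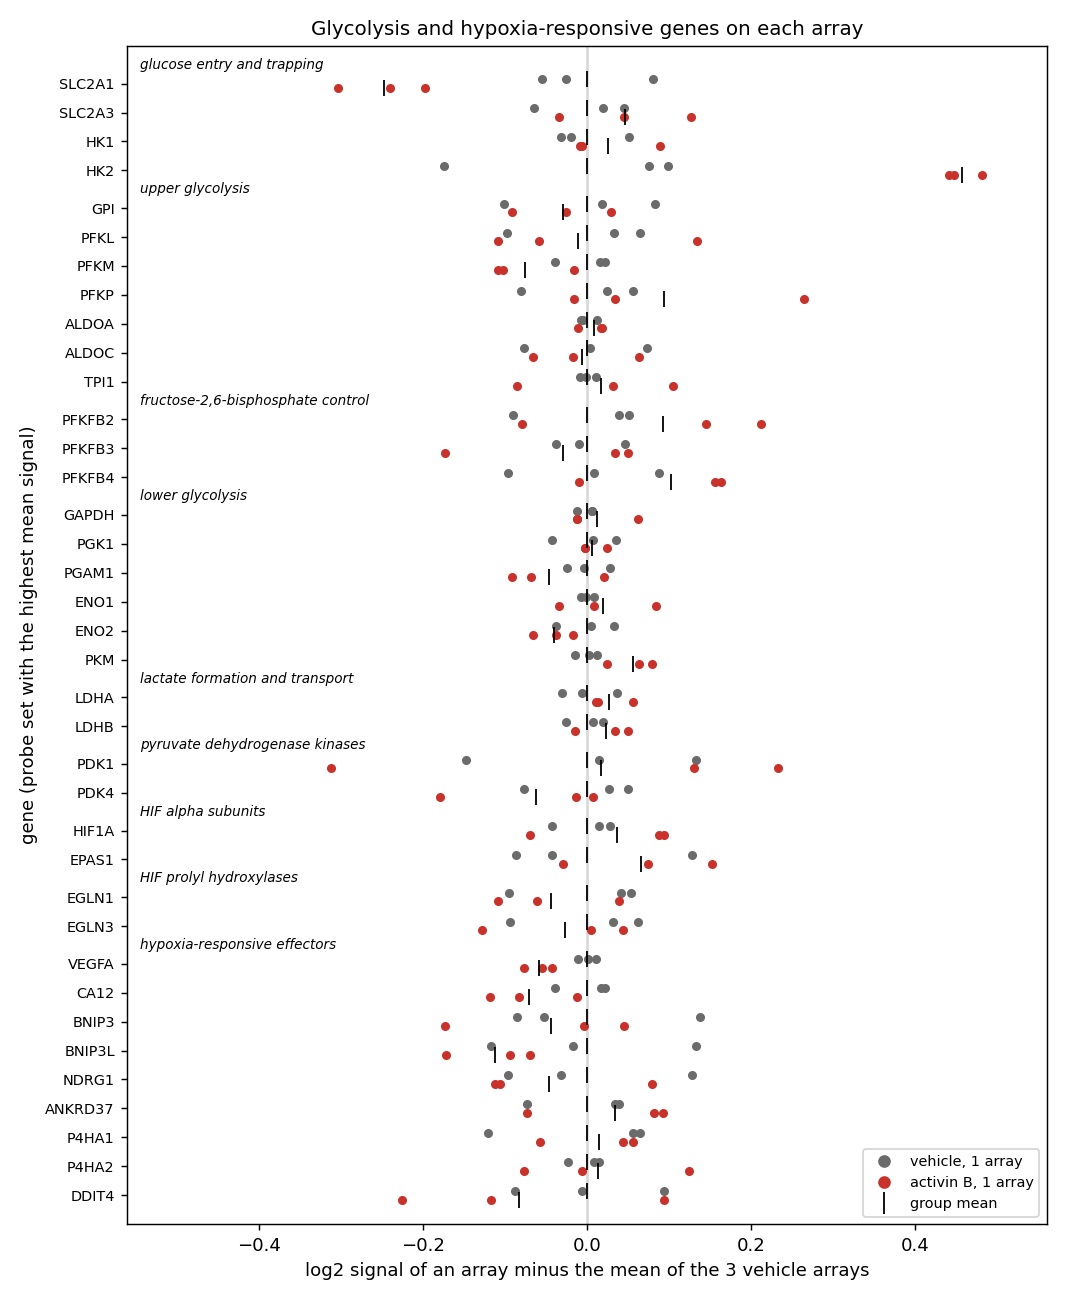
Deviation of each array from the vehicle mean on the log2 scale (horizontal axis) for the 37 measured genes, ordered by role, each read from its probe set with the highest mean signal. Grey points are vehicle arrays, red points activin B arrays, and black bars group means. The activin B arrays of HK2 lie apart on the right and those of SLC2A1 on the left, whereas the groups of most other genes mix around 0.

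The members spread widely in signal. The representing set lay above the median signal of the array in 36 of 37 genes, PDK4 being the exception, and 9 genes, among them GAPDH, ALDOA, LDHA and HIF1A, lay in the top 1% of signals. Detection calls were not used here, and a signal above the median does not show that a transcript was detected, since the endothelial marker PECAM1, the leukocyte marker CD3E and the estrogen receptor ESR1 also lay above it. ALDOC, ENO2, PFKFB2, ANKRD37 and PDK4 were dimmer than PECAM1. How much further the brightest sets can still rise on these arrays was not tested. The line showed high log2 signals in vehicle for vimentin (VIM, 13.89), CD44 (12.50) and the keratins KRT18 (12.09) and KRT14 (11.58) and low ones for estrogen receptor (ESR1, 6.81), progesterone receptor (PGR, 6.51) and EPCAM (6.20). The remaining markers listed for the line were EGFR (9.35), ERBB2 (7.96) and a further keratin, KRT5 (7.55), whose signal was below that of PECAM1. The endothelial markers CDH5, KDR, VWF and PECAM1 lay between 6.08 and 7.84, and the leukocyte markers PTPRC and CD3E at 6.22 and 6.75. Array by array, the median of the 37 genes stayed within -0.01 and 0.02 of its vehicle level on the log2 scale. Activin B replicate 3 stood apart from the other arrays on the first principal component over all probe sets (21.7, against -10.6 to 5.70). This component rose with the replicate number in both groups, with -10.6, -5.98 and 5.70 in vehicle and -9.10, -1.67 and 21.7 in activin B.

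At the entry of glucose, 1 of the 4 measured genes passed the test, by 1 of its 3 probe sets. HK2, the inducible hexokinase that is abundant in many tumors, had log2 signals of 10.35, 10.10 and 10.37 on the vehicle arrays and 10.76, 10.72 and 10.72 on the activin B arrays (probe set 202934_at). Every activin B array lay above every vehicle array, and vehicle replicate 2 was the lowest. The log2 change was 0.46 ± 0.08 (SE, n = 3 per group), 1.37-fold, with a 95% interval from 0.30 to 0.62 (limma, adjusted p = 0.0253). With 1 array left out, the set was called when this was vehicle replicate 3 (limma, adjusted p = 0.0414) and otherwise not. The adjusted p was 0.0544 leaving out vehicle replicate 1, 0.155 leaving out vehicle replicate 2, and 0.0790, 0.135 and 0.0627 leaving out activin B replicates 1, 2 and 3, while the log2 change lay between 0.37 and 0.51 over these omissions.

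HK2 was read by 2 further probe sets, both much dimmer, and neither passed the test. Set 222305_at had log2 signals of 7.34, 7.58 and 7.49 in vehicle and 7.60, 7.43 and 7.52 in activin B. Set 239410_at had 7.06, 7.20 and 7.20 in vehicle and 7.22, 7.09 and 7.24 in activin B. The groups overlapped in both, with log2 changes of 0.05 ± 0.07 and 0.03 ± 0.07 (SE). Their 95% intervals reached up to 0.20 and 0.18, and that of the bright set began at 0.30. The difference between sets was not tested. Averaging the 3 sets gave a log2 change of 0.18 and ended the call (limma, adjusted p = 0.507). Where on the transcript each set binds was not used here.

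SLC2A1, which encodes the basal glucose transporter GLUT1, was lower in activin B by both of its probe sets, without passing the test. The brighter set, 201250_s_at, had log2 signals of 9.95, 9.85 and 9.82 in vehicle and 9.57, 9.63 and 9.67 in activin B. The dimmer set, 201249_at, had 7.498, 7.370 and 7.324 in vehicle and 7.256, 7.194 and 7.104 in activin B. In each set all 3 activin B arrays lay below all 3 vehicle arrays. The log2 changes were -0.25 ± 0.07 and -0.21 ± 0.07 (SE; limma, adjusted p = 0.4001 and 0.706), and the brighter set was 1.19-fold lower. The vehicle mean of the dimmer set, 7.40, was below that of PECAM1. Whether this set lay above background is not known here, so no fold is given for it. The 95% intervals, from -0.39 to -0.11 and from -0.36 to -0.06, left out 0 before adjustment over all probe sets. Of the 26 members with several sets, SLC2A1 was 1 of 8 whose sets shared a sign.

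The other genes of glucose entry stayed close to vehicle. HK1, the constitutive hexokinase, had a log2 change of 0.03 ± 0.06, and SLC2A3, which encodes the high-affinity transporter GLUT3, 0.05 ± 0.07 (SE; groups overlapping). Within each array, the log2 signal of HK2 minus that of HK1 was -1.26, -1.53 and -1.32 in vehicle and -0.88, -0.92 and -1.01 in activin B. Only the change of this difference can be read, as the level of 1 probe set cannot be set against another. It amounted to 0.43 on the log2 scale, with no overlap between groups. As HK2 was known to separate the groups and HK1 stayed near vehicle, this mostly restates the change of HK2. HK2 minus SLC2A1 changed by 0.70. The genes of this pair were each known to separate the groups, in opposite directions, so that their difference does so too follows from the choice of the pair. For both pairs the exact permutation test over 20 labelings gave a two-sided p of 0.1 (adjusted over the 2 pairs, 0.1), the smallest that 3 against 3 arrays allow, so the test could not pass.

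**Figure D2:**
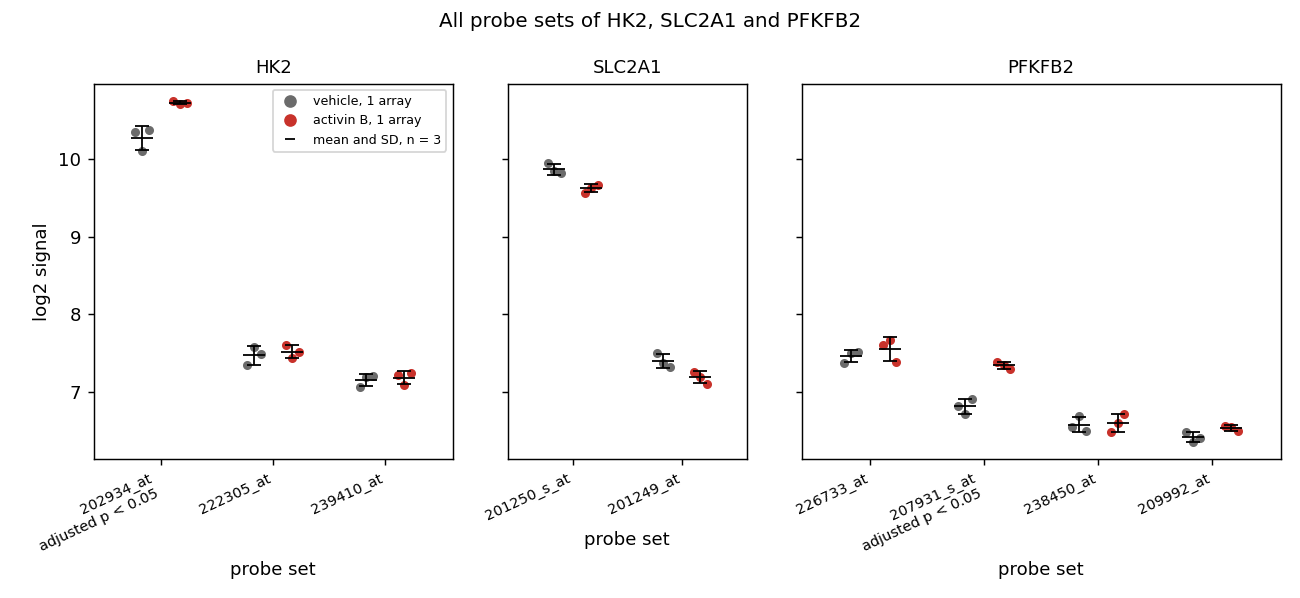
Log2 signal (vertical axis) of every probe set of HK2, SLC2A1 and PFKFB2. Grey points are vehicle arrays and red points activin B arrays, with mean and SD (n = 3) in black. The groups separate in 1 of 3 HK2 sets, in both SLC2A1 sets and in 2 of 4 PFKFB2 sets, of which 202934_at and 207931_s_at passed the test.

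PFKFB2 showed the largest log2 change of any single probe set among the 89, but in a set that did not represent the gene. This enzyme makes and removes fructose-2,6-bisphosphate, the activator of phosphofructokinase. Set 207931_s_at rose, with log2 signals of 6.82, 6.71 and 6.90 in vehicle and 7.38, 7.35 and 7.30 in activin B. The groups lay well apart, and the log2 change was 0.53 ± 0.07 (SE, n = 3 per group; limma, adjusted p = 0.00226). Its vehicle mean, 6.81, was close to that of ESR1, and whether it lay above background is not known here, so no fold is given. This call held in all 14 alternatives counted for the set, with adjusted p between 0.00163 and 0.0317 (limma). The 14 do not include the filter at a mean signal of 7.5, which drops this set as too dim. They also do not include the mean over the sets of a gene, which does not read the set alone. The alternative without sets of the _x_at or _s_at kind is no test of this set, as it repeats the main fit. The representing set, 226733_at, had 7.368, 7.498 and 7.509 in vehicle and 7.603, 7.670 and 7.379 in activin B. Its array of activin B replicate 3 lay among the vehicle arrays, and its log2 change of 0.09 ± 0.08 (SE) did not pass (adjusted p = 0.995).

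The last pair of PFKFB2 sets was dim, below the median signal of the array. Set 209992_at had 6.48, 6.35 and 6.40 in vehicle and 6.56, 6.55 and 6.49 in activin B, with a log2 change of 0.12 ± 0.06 (SE; adjusted p = 0.960) without overlap. Set 238450_at had 6.54, 6.69 and 6.49 in vehicle and 6.49, 6.59 and 6.71 in activin B, with a log2 change of 0.02 ± 0.07 (SE). All 4 sets thus had log2 changes above 0 while 1 of them passed, and their mean over the gene changed by 0.19 without passing (adjusted p = 0.271). Set 207931_s_at is of a kind that can read more than 1 transcript, and which transcripts it reads was not used here. Over all 89 member sets, 2 were called (HK2 and PFKFB2), against 0.121% of all probe sets, and the groups did not overlap in 10, 11.2% against 9.79%.

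Neither PFKFB4 nor PFKFB3, the other PFKFB isozymes among the members, passed the test. PFKFB4 had log2 signals of 7.93, 8.03 and 8.11 in vehicle and 8.18, 8.01 and 8.19 in activin B, with a log2 change of 0.10 ± 0.07 (SE). Its second set had the opposite sign, -0.10. PFKFB3, the inducible isozyme of many tumors, had a log2 change of -0.03 ± 0.07 (SE) with a low value on activin B replicate 3. PFKFB1, an isozyme outside the members, lay below the median signal and did not pass. Its log2 change was -0.14 ± 0.08 (SE; limma, adjusted p = 0.966), with groups that did not overlap. No difference between the isozymes was tested.

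Enzymes of upper glycolysis did not pass the test. Of the 7 measured genes (GPI, PFKL, PFKM, PFKP, ALDOA, ALDOC, TPI1) none was called, and their log2 changes lay between -0.08 and 0.09. PFKP, the platelet-type phosphofructokinase, had log2 signals of 11.11, 11.22 and 11.25 in vehicle and 11.18, 11.23 and 11.46 in activin B. The highest value came from activin B replicate 3, and the log2 change was 0.09 ± 0.08 (SE). PFKM, the muscle-type isozyme, had 10.11, 10.17 and 10.18 in vehicle and 10.05, 10.04 and 10.14 in activin B, with a log2 change of -0.08 ± 0.06 (SE). Groups overlapped for all 7 genes. GPI, the isomerase of the second step, had a log2 change of -0.03 ± 0.07, and the liver-type phosphofructokinase PFKL -0.01 ± 0.08 (SE). The aldolase ALDOA and the isomerase TPI1, both very bright, changed by 0.01 ± 0.06 and 0.02 ± 0.07, and the dim aldolase ALDOC by -0.01 ± 0.07 (SE).

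Enzymes of lower glycolysis gave the same count. Over GAPDH, PGK1, PGAM1, ENO1, ENO2 and PKM, standard errors were 0.06 and log2 changes lay between -0.05 and 0.06, none of which passed. PKM, the pyruvate kinase of growing cells, had log2 signals of 11.08, 11.05 and 11.07 in vehicle and 11.13, 11.09 and 11.14 in activin B. The groups did not overlap, yet the log2 change was only 0.06 ± 0.06 (SE; adjusted p = 0.995), and the second set of the gene had -0.00. GAPDH, which catalyzes the oxidative step, changed by 0.01 ± 0.06 (SE). The 3 array control sets along its transcript, at the 3′ end, the middle and the 5′ end, changed by 0.01, -0.01 and -0.02.

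A dimmer set of PGK1 and another of ENO1 departed from the brightest sets of the same genes. PGK1, the first enzyme of glycolysis that yields ATP, changed by 0.01 ± 0.06 by its representing set, and ENO1, an enolase, by 0.02 ± 0.06 (SE). Set 217383_at of PGK1 had log2 signals of 8.36, 8.19 and 8.18 in vehicle and 8.31, 8.75 and 8.81 in activin B (log2 change 0.38 ± 0.11, SE; adjusted p = 0.484). Set 216554_s_at of ENO1 had 10.13, 10.05 and 9.996 in vehicle and 10.16, 10.53 and 10.54 in activin B (log2 change 0.35 ± 0.09, SE; adjusted p = 0.379). In both, activin B replicates 2 and 3 were high and replicate 1 lay at the level of vehicle. Without activin B replicate 1 both sets were called (limma, adjusted p = 0.00941 and 0.0155), and under every other alternative neither was. Both genes, like GAPDH, are known to have processed pseudogenes of near-identical sequence, so these sets are uncertain readings of the genes.

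**Figure D3:**
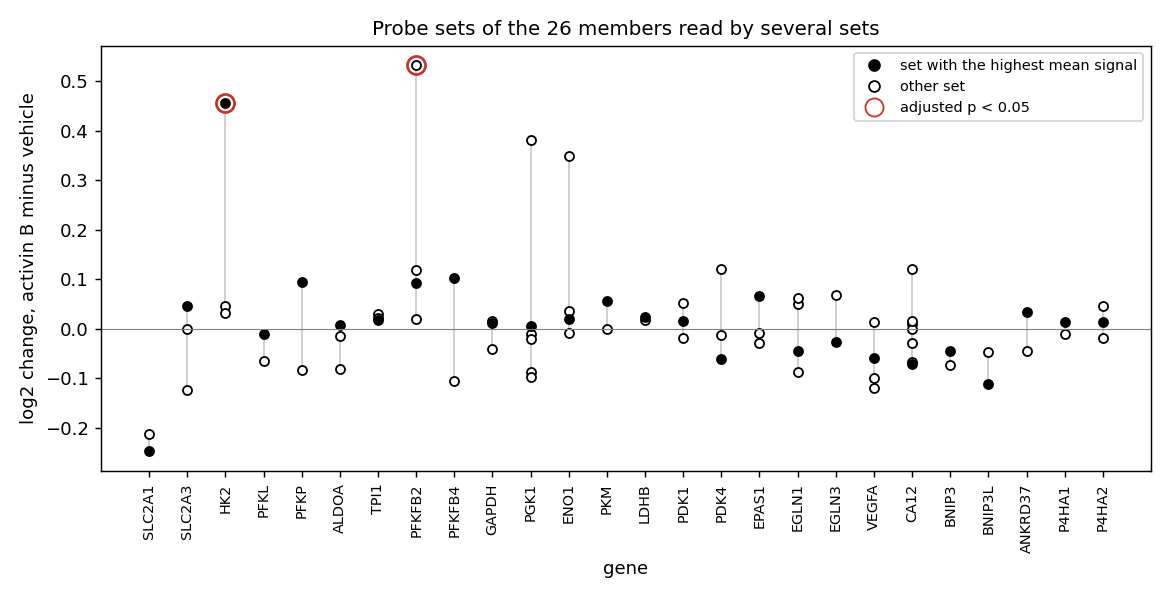
Log2 change, activin B minus vehicle (vertical axis), of each probe set of the 26 members that were read by several sets. Filled points are the sets with the highest mean signal, open points the other sets, and red rings mark an adjusted p under 0.05 by limma. The sets of HK2, PFKFB2, PGK1 and ENO1 spread over more than 0.25, whereas the others lie close together near 0, apart from both sets of SLC2A1.

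Probe sets of 1 gene agreed in sign in 8 of the 26 genes with several sets and were mixed in 18. The median span between the lowest and highest log2 change of a gene was 0.09. It exceeded 0.25 in 4 genes, HK2, PFKFB2, PGK1 and ENO1, with the widest span, 0.51, in PFKFB2.

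Genes at the fate of pyruvate did not pass. The lactate dehydrogenase subunits LDHA and LDHB both changed by 0.03 or less (0.03 ± 0.06 and 0.02 ± 0.06, SE). PDK1, a kinase that inhibits pyruvate dehydrogenase, had log2 signals of 8.13, 8.29 and 8.41 in vehicle and 7.97, 8.41 and 8.51 in activin B. This was the widest spread of any member, with activin B replicate 1 lowest and replicate 3 highest, and the values rose with the replicate number in both groups. In the main fit, which used no replicate block, the log2 change of 0.02 ± 0.11 (SE) carries a 95% interval from -0.23 to 0.26. PDK4, the starvation-induced kinase, was dim and changed by -0.06 ± 0.07 (SE).

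No member of the HIF system passed, and none had an unadjusted p under 0.05 by limma, among 13 measured genes. HIF1A, the ubiquitous alpha subunit, had log2 signals of 12.64, 12.71 and 12.69 in vehicle and 12.77, 12.77 and 12.61 in activin B. EPAS1, which encodes HIF-2 alpha, had 10.91, 11.12 and 10.95 in vehicle and 10.97, 11.07 and 11.15 in activin B. The groups overlapped in both, with log2 changes of 0.04 ± 0.07 and 0.07 ± 0.07 (SE). The prolyl hydroxylases EGLN1, the main oxygen sensor, and EGLN3, itself a HIF target, changed by -0.04 ± 0.07 and -0.03 ± 0.07 (SE).

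The hypoxia-responsive effectors likewise stayed near the vehicle level, with a median log2 change of -0.05 over 9 genes. VEGFA, the angiogenic growth factor, had log2 signals of 11.45, 11.43 and 11.44 in vehicle and 11.40, 11.36 and 11.38 in activin B. The groups did not overlap, although the log2 change was small, -0.06 ± 0.06 (SE; adjusted p = 0.995), with a 95% interval from -0.19 to 0.07. The 4 sets of VEGFA had log2 changes from -0.12 to 0.01.

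Mitophagy and stress genes of this group had log2 changes below 0 that did not pass the test. BNIP3L, a mitophagy receptor, had 9.57, 9.47 and 9.72 in vehicle and 9.42, 9.49 and 9.52 in activin B, with a log2 change of -0.11 ± 0.07 (SE; adjusted p = 0.992). DDIT4, an inhibitor of mTORC1, had 10.81, 10.63 and 10.71 in vehicle and 10.81, 10.49 and 10.60 in activin B, with a log2 change of -0.08 ± 0.08 (SE). CA12, a membrane carbonic anhydrase, had 11.91, 11.97 and 11.97 in vehicle and 11.94, 11.87 and 11.83 in activin B, with a log2 change of -0.07 ± 0.06 (SE). Groups overlapped for these 3 genes, and the 7 sets of CA12 ran from -0.07 to 0.12. BNIP3 and NDRG1 changed by -0.04 ± 0.08 and -0.05 ± 0.08 (SE). ANKRD37 changed by 0.03 ± 0.07, and the collagen prolyl hydroxylase subunits P4HA1 and P4HA2 by 0.01 ± 0.07 each (SE).

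**Figure D4:**
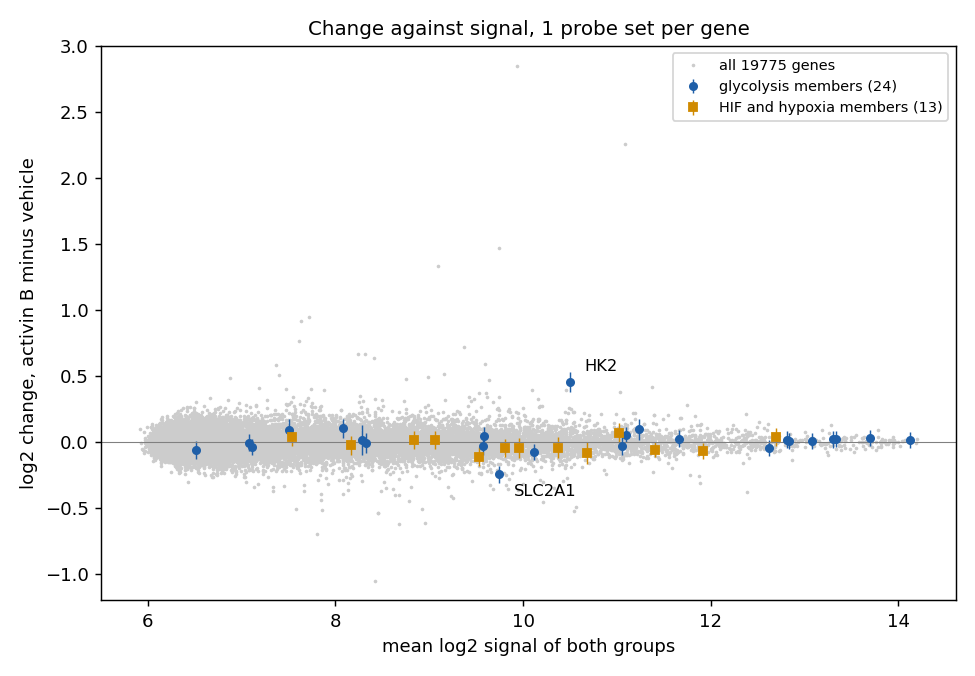
Log2 change, activin B minus vehicle (vertical axis), against mean log2 signal (horizontal axis), with 1 probe set per gene. Grey points are all 19775 genes, blue circles the 24 measured genes of glycolysis and orange squares the 13 of HIF and hypoxia, with standard errors as bars. HK2 lies above and SLC2A1 below the band in which the other members fall.

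The plot of change against signal shows the narrow band in which the measured members other than HK2 and SLC2A1 lay. The log2 changes of these 35 genes lay between -0.11 (BNIP3L) and 0.10 (PFKFB4), and their 95% intervals between -0.27 and 0.26.

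Other genes of the same pathways were counted from a list made by function, outside the 40. This list was made with earlier results of these data known, so its counts are a description and no independent test. Of 36 with a probe set, 1 fell and none rose at an adjusted p under 0.05, against 0.192% of all genes called. At an unadjusted p under 0.05 there were 3 on the higher and 1 on the lower side, 11.1% against 5.89% of all genes. The gene that fell was ADM, which encodes the HIF target adrenomedullin, with log2 signals of 8.96, 8.99 and 9.06 in vehicle and 8.43, 8.53 and 8.70 in activin B (log2 change -0.45 ± 0.07, SE; limma, adjusted p = 0.0253). Among the remaining genes the smallest p values were those of VHL, which targets HIF for degradation, PDHA1, a subunit of pyruvate dehydrogenase, and LOX, a HIF-responsive crosslinking enzyme. Their log2 changes were 0.27 ± 0.09, 0.16 ± 0.07 and 0.18 ± 0.08 (SE; adjusted p = 0.757, 0.880 and 0.934). In vehicle, VHL (7.02) and LOX (6.68) were dimmer than PECAM1, and whether they lay above background is not known here. The list of gluconeogenesis and the pentose phosphate pathway, whose 8 measured genes include TXNIP, an inhibitor of glucose uptake, had log2 changes between -0.10 and 0.02.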

How the data were processed

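RNA of 6 cultures was hybridised to Affymetrix Human Genome U133 Plus 2.0 arrays. The deposited values are log2 signals per probe set, which the authors made with the RMA method in Chipster 3.8.0. Quantile scaling within RMA forces arrays to a common distribution, so a shift of most transcripts together would not be seen. The tests ran over 54613 probe sets, without the 62 array controls; 41091 of them carried 1 gene symbol, 1801 several and 11721 none in the annotation used here. Symbols were checked by gene identifier against RefSeq, which changed 0 of them.

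Groups and replicate numbers came from the sample titles. A linear model with empirical Bayes moderation (limma 3.58.1, R 4.3.3) was fitted to every probe set, p values were adjusted over all of them after Benjamini and Hochberg, and errors are standard errors of this model (4 residual and 10.8 prior degrees of freedom). The prior draws on the spread over all probe sets, so the standard error of a set is not the spread of its own values alone. Calls required an adjusted p under 0.05. The steps were tested on simulated data. With 3 arrays per group, precision is limited by their number. The members, lists and tests were chosen with earlier results of these data known. Values on every array are given for HK2, SLC2A1 and PFKFB2, for the 12 members with the smallest p, for HIF1A and EPAS1, and for PDK1 and the outlying sets of PGK1 and ENO1, which were chosen after their values were seen. Promoter windows of 250 bases came from RefSeq. Alternatives covered the replicate block, filters on dim sets, further normalization, the prior of the model, the probe set of a gene and each array left out. Figures were drawn with matplotlib 3.10.9.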

Additional observations from a re-analysis of the deposited data

How the results depend on the processing

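HK2 stayed above 0 in all 16 alternatives and was called in 10 of them. Among these, the alternative without sets of the _x_at or _s_at kind only repeats the main values of HK2. Quantile normalization, median centring and cyclic loess were applied to values already scaled by RMA. Each gave HK2 a log2 change of 0.46, as the main fit did, so these calls add little. With the mean of its probe sets for each gene, the HK2 log2 change was 0.18 (limma, adjusted p = 0.507), 0 member genes were called, and over all genes 15 were called higher and 10 lower. Leaving out 1 array gave an HK2 log2 change between 0.37 and 0.51, 0 or 1 member genes called higher, 0 called lower, and a median log2 change of the members between -0.014 and 0.011, the lowest without activin B replicate 1. The same omissions gave 25 to 50 probe sets called higher and 7 to 26 called lower, against 40 and 26 with all arrays; each also lowers the number of samples. With only sets of mean signal 7.5 or more, 24 sets were called higher. SLC2A1 and PFKFB2 passed by their representing sets in no alternative, with log2 changes from -0.27 to -0.21 and from 0.03 to 0.19, and no member was called lower in any. The sign held in every alternative for 16 of 37 members and turned in at least 1 for the other 21, none of which was called.

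With the replicate number as a block, 53 probe sets were called higher and 44 lower, and HK2 was again the one member called (adjusted p = 0.0107). Deviations of arrays with the same number correlated at 0.16, 0.04 and 0.19 for numbers 1, 2 and 3, and each of the 6 arrays correlated best with its own number. The deviations within a group are tied to its mean, so these 6 results are not independent. Cultures with the same number may or may not be matched across the groups, which the labels do not say and which was not tested. The main fit used no block, so its p values leave such a matching out. Quantile normalization, median centring and cyclic loess shifted the median of all probe sets by less than 0.01. Background correction and scan batch could not be varied here, and small changes in dim sets such as that of PDK4 could be missed.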
